A study of Mus musculus with 6 samples.

Results

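Oxidative phosphorylation is carried out by 4 protein complexes that pass electrons along the inner mitochondrial membrane and by the ATP synthase, and the genes described here are those whose symbols mark them as subunits, or assembly factors, of these 5 machines. They were taken by symbol from the probe annotation: symbols starting with Ndufa, Ndufb, Ndufc, Ndufs, Ndufv, Sdh, Uqcr, Cox4, Cox5, Cox6, Cox7, Cox8 or Atp5, without pseudogene symbols, and with the brightest of a gene's probe sets used. This gave 93 genes of 19937 that had a probe set with 1 symbol. By symbol 36 encode subunits of complex I, 4 of complex II, 8 of complex III, 17 of complex IV and 17 of the ATP synthase. The prefixes also bring in 7 assembly factors of complex I (Ndufaf) and 4 of complex II (Sdhaf), which are kept apart from the subunits below. Probe sets shared with another symbol (Cox7c, Ndufb4 and a second Ndufs5 probe set) were left out.

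The study used 6 one-colour whole-transcript arrays of Thy1.2+ cells purified with magnets from E17.5 fetal thymi of Rag1-/- mice. Control-0h (fresh, 2 arrays) was unstimulated tissue. Control-DMSO-40h (DMSO, 2 arrays) was stimulated with anti-CD3 for 40 h in the solvent DMSO. Its counterpart 79-6-40h (79-6, 2 arrays) received anti-CD3 for 40 h with 50 µM of 79-6, a small-molecule inhibitor of the transcriptional repressor Bcl6. All 3 groups lack Rag1, so their thymocytes cannot rearrange T cell receptor genes and stop before the pre-T cell receptor checkpoint; antibody to CD3 stands in for that signal. The design text speaks of fetal thymic organ cultures and the sample labels do not. No source says whether replicates are separate litters or cultures, and the p-values below reflect array-to-array spread, which may be technical. DMSO against fresh therefore holds culture, time, solvent and anti-CD3 together, and only 79-6 against DMSO isolates the compound.

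Array medians lay between 7.07 and 7.15 on the log2 scale, and the number of arrays limits the precision. Of 11 thymocyte markers 9 were measured, and their mean log2 value was 12.05 to 12.11 on the fresh arrays, 11.81 to 11.87 with DMSO and 11.75 to 11.79 with 79-6. These 9 did not move together: from fresh to DMSO 7 were called (77.8%, against 19.6% of all genes), 3 higher and 4 lower. Their median log2 change was -0.10, and Ptcra fell most (-1.86). Markers of other cells also moved between groups. The mean of 8 thymic epithelial markers was 9.44 to 9.46 on fresh arrays. It was 7.87 to 8.18 with DMSO and 8.15 to 8.17 with 79-6. From fresh to DMSO 8 of 8 were called lower (100%, against 10.7% of all genes). The mean of 9 macrophage and dendritic cell markers was 8.02 and 8.73 on the fresh arrays. It was 9.45 to 9.56 with DMSO and 9.93 to 9.94 with 79-6. Of these 9, 4 were called higher with DMSO than in fresh cells (44.4%, against 8.89% of all genes). Granulocyte markers (5 measured) went from 7.07 to 7.48 up to 9.13 to 9.31 with DMSO. In bulk RNA a change in the share of a cell type and a change per cell cannot be told apart, and the part these shifts have in the values below was not tested.

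Complex I takes electrons from NADH and complex II from succinate. Ubiquinone carries them to complex III, cytochrome c carries them on to complex IV, where oxygen is reduced, and the proton gradient so built drives the ATP synthase. The subunit genes in question are nuclear, and their promoters are known for sites of nuclear respiratory factor 1 (NRF1), of ETS factors such as GABPA and of YY1. In thymocytes, proliferation after the pre-T cell receptor signal is known to go with a change in metabolism, and several complex IV subunits exist as a common and a tissue-restricted isoform.

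RefSeq promoters (build GRCm38.p6, 250 bases before to 50 after the start) matched 77 of the 93 members by symbol. They were searched on both strands for GCGCATGC, part of an NRF1 site, CCGGAAGT, an ETS site, and AAGATGGCG, a YY1 site. In no member promoter did matches to different motifs share bases. The NRF1 letters were present in 12 of 77 members (15.6%) against 4.27% of the 15613 tested genes with a promoter. YY1 letters were present in 7 (9.09%, against 2.29%) and the ETS letters in 5 (6.49%, against 6.01%). At least 1 motif was present in 23 members (29.9%, against 11.8%). Of 11 members called higher with DMSO, 4 held a motif (36.4%), against 19 of 65 members not called (29.2%), a difference that was not tested. The promoters of those 4 are shown first, starting with Sdhb, the member that rose most. The promoter of Cox6b2, the only member called lower with DMSO, follows and, like most members, held none of the 3. All are written 5′ to 3′ along the gene's strand with the motif in capitals.
Sdhb (chr4:140961021-140961320, plus strand): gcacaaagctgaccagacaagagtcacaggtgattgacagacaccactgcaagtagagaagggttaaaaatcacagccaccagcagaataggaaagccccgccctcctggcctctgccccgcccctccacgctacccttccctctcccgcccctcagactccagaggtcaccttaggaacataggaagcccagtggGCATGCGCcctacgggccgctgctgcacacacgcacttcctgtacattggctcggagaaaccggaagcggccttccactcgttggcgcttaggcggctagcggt
Cox6a1 (chr5:115348909-115349208, minus strand): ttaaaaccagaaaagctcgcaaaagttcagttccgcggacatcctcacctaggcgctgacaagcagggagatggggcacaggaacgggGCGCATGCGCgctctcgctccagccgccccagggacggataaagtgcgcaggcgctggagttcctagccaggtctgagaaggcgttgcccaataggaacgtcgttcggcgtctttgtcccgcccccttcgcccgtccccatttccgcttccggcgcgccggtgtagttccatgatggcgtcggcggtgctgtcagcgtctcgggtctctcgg
Ndufs3 (chr2:90904672-90904971, minus strand): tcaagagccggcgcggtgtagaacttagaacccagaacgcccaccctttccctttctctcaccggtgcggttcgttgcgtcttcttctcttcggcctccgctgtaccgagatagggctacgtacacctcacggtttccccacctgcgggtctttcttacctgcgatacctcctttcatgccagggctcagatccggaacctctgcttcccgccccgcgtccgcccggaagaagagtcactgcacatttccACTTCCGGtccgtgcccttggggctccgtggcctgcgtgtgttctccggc
Uqcrh (chr4:116075021-116075320, minus strand): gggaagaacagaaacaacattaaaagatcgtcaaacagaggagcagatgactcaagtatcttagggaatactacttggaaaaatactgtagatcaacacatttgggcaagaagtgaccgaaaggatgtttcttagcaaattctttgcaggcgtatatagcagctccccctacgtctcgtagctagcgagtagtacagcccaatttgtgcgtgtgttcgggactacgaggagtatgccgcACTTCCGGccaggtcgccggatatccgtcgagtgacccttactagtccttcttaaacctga
Cox6b2 (chr7:4753045-4753344, minus strand): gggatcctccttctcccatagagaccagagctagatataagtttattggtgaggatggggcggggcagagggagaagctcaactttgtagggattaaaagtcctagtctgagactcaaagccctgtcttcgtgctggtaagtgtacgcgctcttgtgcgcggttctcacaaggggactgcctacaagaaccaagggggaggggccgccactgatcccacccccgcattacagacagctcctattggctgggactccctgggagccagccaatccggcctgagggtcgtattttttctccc
Counting from the start site, with no position 0, the NRF1 letters begin at -54 in Sdhb on the reverse strand. Cox6a1 holds a palindrome that reads as the NRF1 letters on the forward strand from -162 and on the reverse strand from -160. The ETS letters lie on the reverse strand from -11 in Uqcrh and from 1 in Ndufs3. A match describes letters only and says nothing of binding in these cells.

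From fresh cells to 40 h of anti-CD3 with DMSO, the oxidative phosphorylation genes moved little. By limma, 12 of 93 passed an adjusted p of 0.05 (12.9%), against a background of 19.6% of all genes. They leaned upward: 11 were called higher (11.8%, background 8.89%) and 1 lower (1.08%, background 10.7%). The median log2 change was 0.07 over the members and 0.02 over all genes. DMSO arrays lay entirely above fresh arrays for 50 members (53.8%, background 31.9%) and entirely below for 18 (19.4%, background 28.1%). Only Cox6b2 changed at least 2-fold, and for 83 of 93 members the 95% interval of the log2 change lay within 0.5 of 0, as it did for 75.8% of all genes.

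**Figure D1:**
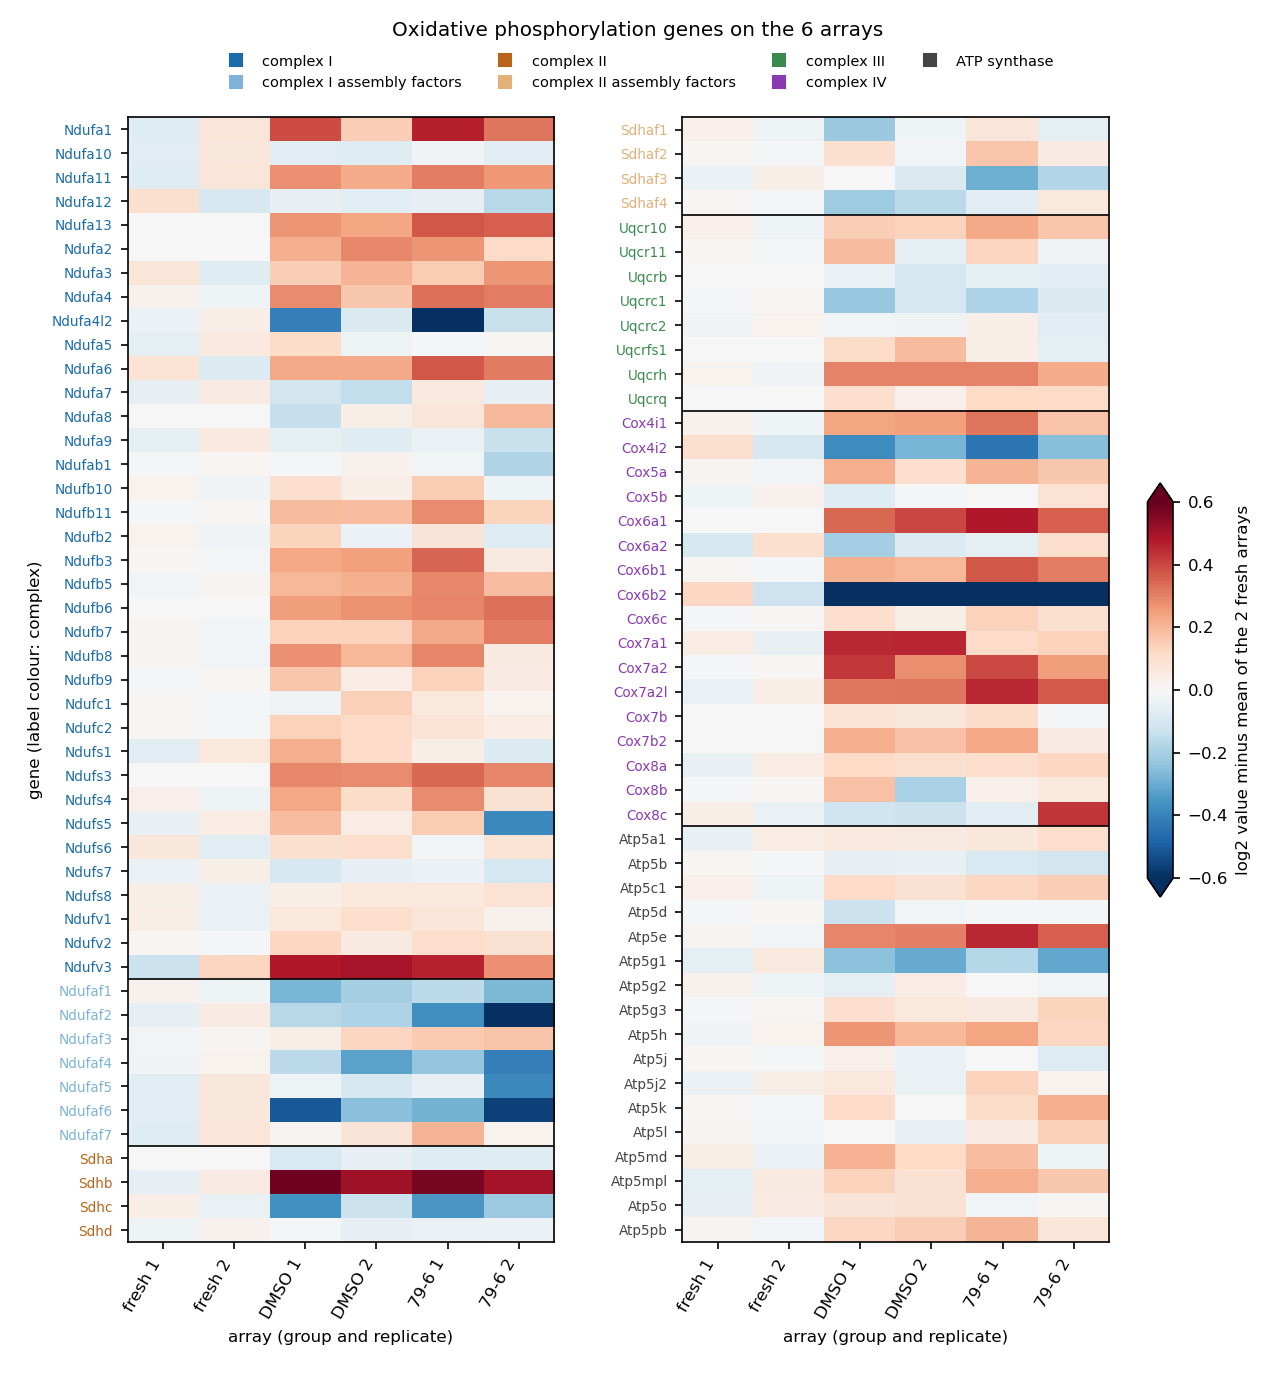
Log2 value of each of the 93 genes on each of the 6 arrays minus the mean of its 2 fresh arrays, with genes in rows, arrays in columns and label colours by complex; the colour scale stops at 0.6 in each direction. Rows are mostly pale, Sdhb and Ndufv3 are red and Cox6b2 is beyond the blue end on all 4 cultured arrays, and Cox7a1 is deep red on the DMSO arrays and pale with 79-6.

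Cox6b2, the isoform of complex IV subunit 6b known from testis, fell furthest. Its log2 values were 9.30 and 9.05 on the fresh arrays, 7.97 and 8.08 with DMSO, and 7.73 and 7.85 with 79-6. The cultured arrays were all below both fresh arrays, and the 79-6 arrays were below the DMSO arrays. From fresh to DMSO it fell by 1.16 ± 0.10 on the log2 scale (SE, n = 2 arrays a group; 2.23-fold lower, adjusted p = 3.66e-04 by limma). Its somatic counterpart Cox6b1 stood at 11.97 and 11.96 on the fresh arrays, 12.18 and 12.16 with DMSO, and 12.34 and 12.27 with 79-6. All 4 cultured arrays were above both fresh ones, but the change to DMSO missed the threshold (log2 change 0.21 ± 0.07 SE, adjusted p = 0.0803 by limma). The 95% intervals of these 2 changes, -1.40 to -0.91 for Cox6b2 and 0.05 to 0.37 for Cox6b1, do not meet.

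Among the other complex IV genes 4 rose. Of the 17 complex IV genes, 23.5% were thus called higher (background 8.89%) and 5.88% lower (background 10.7%). Cox7a1, the heart and skeletal muscle isoform of subunit 7a, read 7.45 and 7.37 on the fresh arrays and 7.86 and 7.87 with DMSO, above both fresh arrays (log2 change 0.45 ± 0.07 SE, 1.37-fold, adjusted p = 0.00425 by limma). Cox7a2, the isoform of most tissues, read 10.47 and 10.50 fresh and 10.91 and 10.76 with DMSO (log2 change 0.35 ± 0.09 SE, adjusted p = 0.0276 by limma). Cox7a2l, which joins complexes III and IV into supercomplexes, rose by 0.32 (adjusted p = 0.0214 by limma). Cox6a1, the general isoform of subunit 6a, read 10.21 and 10.20 fresh and 10.55 and 10.61 with DMSO, and rose by 0.37 ± 0.08 SE (adjusted p = 0.0130 by limma). Its heart and muscle counterpart Cox6a2 was not called, with 6.99 and 7.19 fresh and 6.89 and 7.01 with DMSO, values that overlap. Both Cox7a1 and Cox6a2 were dim, with values not far from the array medians of 7.07 to 7.15. Subunit 4, whose isoform 2 is known from lung and from pericytes, gave opposite signs that both missed the threshold: Cox4i1 had a log2 change of 0.24 (adjusted p = 0.0765 by limma) and Cox4i2 one of -0.33 (adjusted p = 0.0604 by limma). The median over the 17 complex IV genes was 0.11.

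**Figure D2:**
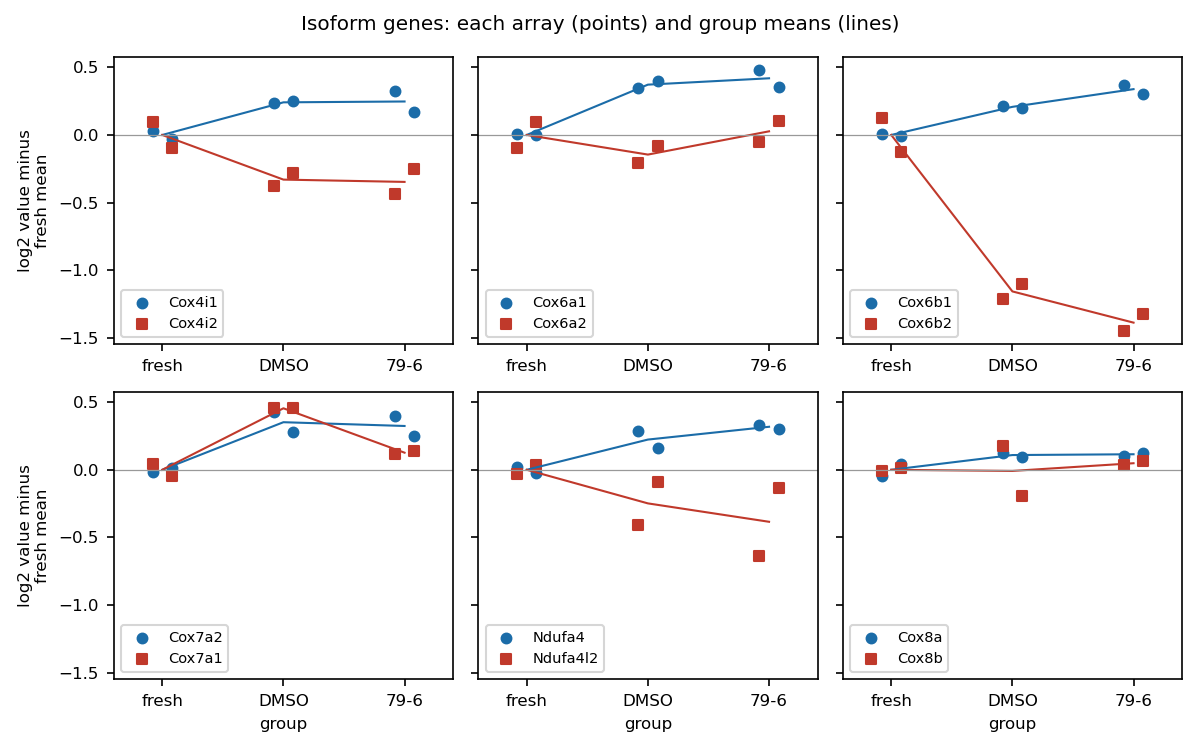
Log2 value minus the fresh mean, on the y axis, for 6 pairs of isoform genes in the 3 groups on the x axis; points are single arrays and lines join group means, blue for the common and red for the restricted isoform. Cox6b2 drops below -1 in both cultured groups while Cox6b1 rises slightly, and Cox7a1 lies higher with DMSO than with 79-6, whose arrays are still above the fresh ones.

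Markers of some of the cells in which the restricted isoforms are known are given beside them. Markers of testis and lung, named above for Cox6b2 and Cox4i2, were not among those read. The mean of 7 striated muscle markers was 6.56 and 6.61 on fresh arrays, 6.57 to 6.62 with DMSO and 6.54 to 6.67 with 79-6, with 1 marker higher (Actn2) and 1 lower (Des) in DMSO against fresh. None of 4 brown fat markers was called. Mesenchymal and endothelial markers (7 measured) averaged 8.05 and 8.20 fresh, 7.78 to 7.90 with DMSO and 7.92 to 7.93 with 79-6. These 7 split from fresh to DMSO, with 1 called higher (Pecam1, 0.37), 3 called lower (Pdgfrb, -1.60, Kdr, -0.57, and Cdh5, -0.55) and a median of 0.05. In the same comparison 8.89% of all genes were called higher and 10.7% lower. The part of these cells in the isoform values was not tested.

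Complex II, the only one that is also an enzyme of the citric acid cycle, held the largest rise. Sdhb encodes its iron-sulfur subunit. The Sdhb values were 10.20 and 10.30 on fresh arrays, 10.83 and 10.76 with DMSO and 10.82 and 10.75 with 79-6, so that all 4 cultured arrays were above both fresh ones and the 2 cultured groups overlapped. The log2 change to DMSO was 0.55 ± 0.08 (SE, 1.46-fold, adjusted p = 0.00261 by limma). Its partners were not called. Sdha, the flavoprotein, read 11.60 and 11.61 fresh and 11.52 and 11.55 with DMSO. Sdhc, a membrane anchor, had a log2 change of -0.24 (95% interval -0.48 to -0.01, adjusted p = 0.143 by limma) and Sdhd, the other anchor, one of -0.03.

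In complex I, the largest complex, 4 of 36 genes rose (11.1%, background 8.89%) and 0 fell (background 10.7%), and the median was 0.12. At an unadjusted p of 0.05, 12 were higher (33.3%, against 14.9% of all genes) and 0 lower (against 16%). Ndufv3, a small accessory subunit of the NADH-binding module, rose most. It read 9.34 and 9.60 on the fresh arrays, which lie further apart than the DMSO ones, and 9.95 and 9.96 with DMSO (log2 change 0.49 ± 0.11 SE, adjusted p = 0.0181 by limma). Ndufs3, a core subunit, went from 10.93 on both fresh arrays to 11.22 and 11.21 with DMSO (log2 change 0.29 ± 0.07 SE, adjusted p = 0.0248 by limma). A dimmer Ndufs3 probe set, not used here, changed by 0.09. Accessory subunits Ndufb6 and Ndufa13 rose by 0.26 and 0.25 (adjusted p = 0.0339 and 0.0385 by limma). The other core subunits measured were not called: their log2 changes were 0.17 for Ndufs1, -0.07 for Ndufs7, 0.05 for Ndufs8, 0.08 for Ndufv1 and 0.09 for Ndufv2. Ndufa4, counted here by its symbol and now known to sit in complex IV, had a log2 change of 0.22 (adjusted p = 0.0850 by limma). Its relative Ndufa4l2, known as a hypoxia-induced gene, read 7.20 and 7.26 fresh and 6.82 and 7.15 with DMSO, and was not called.

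Assembly factors of complex I, which build the complex without staying in it, had 0 calls among 7 and a median of -0.18. At an unadjusted p of 0.05, 3 were lower (42.9%, against 16% of all genes) and 0 higher (against 14.9%), and 2 of the 7 changes were positive. Ndufaf6 had the largest value (-0.38, adjusted p = 0.0767 by limma), followed by Ndufaf4 (-0.24, adjusted p = 0.128) and Ndufaf1 (-0.24, adjusted p = 0.0751). The 4 complex II assembly factors had no call and a median of -0.08. Whether assembly factors and subunits differ as groups was not tested.

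Complex III and the ATP synthase each had 1 call, out of 8 genes (12.5%) and 17 genes (5.88%), against a background of 19.6%. Uqcrh, the hinge protein of complex III, read 11.78 and 11.74 fresh and 12.06 on both DMSO arrays, and rose by 0.30 ± 0.07 SE (adjusted p = 0.0237 by limma). The other complex III genes had log2 changes from -0.16 (Uqcrc1, a core protein) to 0.15 (Uqcrfs1, the Rieske iron-sulfur protein). Atp5e, the epsilon subunit of the ATP synthase, read 9.09 and 9.06 fresh and 9.37 and 9.38 with DMSO (log2 change 0.30 ± 0.07 SE, adjusted p = 0.0257 by limma). The catalytic subunits Atp5a1 and Atp5b had log2 changes of 0.06 and -0.05. Of the 3 genes that encode the same mature c-ring protein, Atp5g1 had a log2 change of -0.27 (adjusted p = 0.0626 by limma), Atp5g2 one of -0.00 and Atp5g3 one of 0.08. Medians were 0.07 for complex III and 0.06 for the ATP synthase.

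Of these 12 calls Cox6b2, Cox7a1 and Sdhb remained in each of 6 fits that left out 1 array. The number called fell to 3 without fresh replicate 1 or DMSO replicate 1 and to 4 without fresh replicate 2 or DMSO replicate 2, where the group is left with 1 array assumed to vary like the others. It was 18 with arrays set to 1 median, 20 with a pseudocount of 16 and 23 with limma's trend and robust settings, all 12 calls being among those called each time. In the same order, 20.6%, 21.6% and 22.8% of all genes were called. With trend and robust settings the members were thus not called less often than all genes, unlike in the main fit. The filter on dim genes went the other way: 14 members were called, against 27.8% of the genes kept. Under that filter the members were thus called less often than the genes kept.

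With 79-6 in place of DMSO these genes were nearly level. By limma 1 of 93 was called (1.08%, background 4.36%), none higher (background 2.38%) and 1 lower (background 1.98%). At an unadjusted p of 0.05, 1 was higher (1.08%, against 10.7% of all genes) and 3 were lower (3.23%, against 9.78%). With trend and robust settings limma called 0 members and 8.64% of all genes. The median log2 change was 0.01 over members and 0.02 over all genes. The 79-6 arrays lay entirely above the DMSO arrays for 23 members (24.7%, background 26.8%) and entirely below for 13 (background 22.2%). No member changed 2-fold. The 95% interval stayed within 0.5 of 0 for 89 of 93 members, against 84.4% of all genes, and within 1 for all 93. Exceptions to the narrower bound were Cox8c, Ndufa4l2, Ndufaf2 and Ndufs5.

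The gene called was Cox7a1, a dim gene whose values lie not far above the array medians of 7.07 to 7.15. It read 7.86 and 7.87 with DMSO and 7.52 and 7.55 with 79-6, so the groups did not overlap, and the 79-6 arrays were nearer the fresh values of 7.45 and 7.37. The log2 change was -0.33 ± 0.07 (SE, 95% interval -0.49 to -0.16, adjusted p = 0.04996 by limma, just under the threshold). In none of the 6 fits that left out 1 array was it called, where adjusted p lay between 0.0819 and 0.204. From DMSO to 79-6, where 4.36% of all genes were called, none of 7 striated muscle markers was called. Of their changes 4 were positive and 3 negative, with a median of 0.03. The one called higher from fresh to DMSO, Actn2, had the lowest of these changes and read 7.58 and 7.93 with DMSO and 7.52 and 7.46 with 79-6. Other markers called in this comparison were C1qa (0.98) and Mmp8 (1.30), higher with 79-6, and Pdgfrb (-0.37) and Mpo (-0.86), lower; the part of these cells in the Cox7a1 value was not tested. Cox7a2 in the same comparison had an interval of -0.23 to 0.17 and overlapping arrays.

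Ndufaf2, an assembly factor of complex I, had the next lowest value in this comparison. It read 7.97 and 7.95 with DMSO and 7.77 and 7.53 with 79-6, without overlap, a log2 change of -0.31 that did not pass (adjusted p = 0.124 by limma). Cox6b2 was lower by 0.23 in the fit (log2 change -0.23, 95% interval -0.47 to 0.01, adjusted p = 0.268 by limma). Cox8c, a testis isoform of complex IV subunit 8, read 6.15 and 6.14 with DMSO but 6.21 and 6.70 with 79-6, so 79-6 replicate 2 alone stood high (log2 change 0.31, adjusted p = 0.296 by limma). Ndufs5 was likewise low on 79-6 replicate 2 alone, with 8.90 and 8.36 against 8.93 and 8.79 with DMSO. For the genes that rose with DMSO, the intervals of 79-6 minus DMSO were -0.19 to 0.17 for Sdhb, -0.13 to 0.22 for Cox6a1, -0.37 to 0.13 for Ndufv3 and -0.06 to 0.28 for Atp5e.

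**Figure D3:**
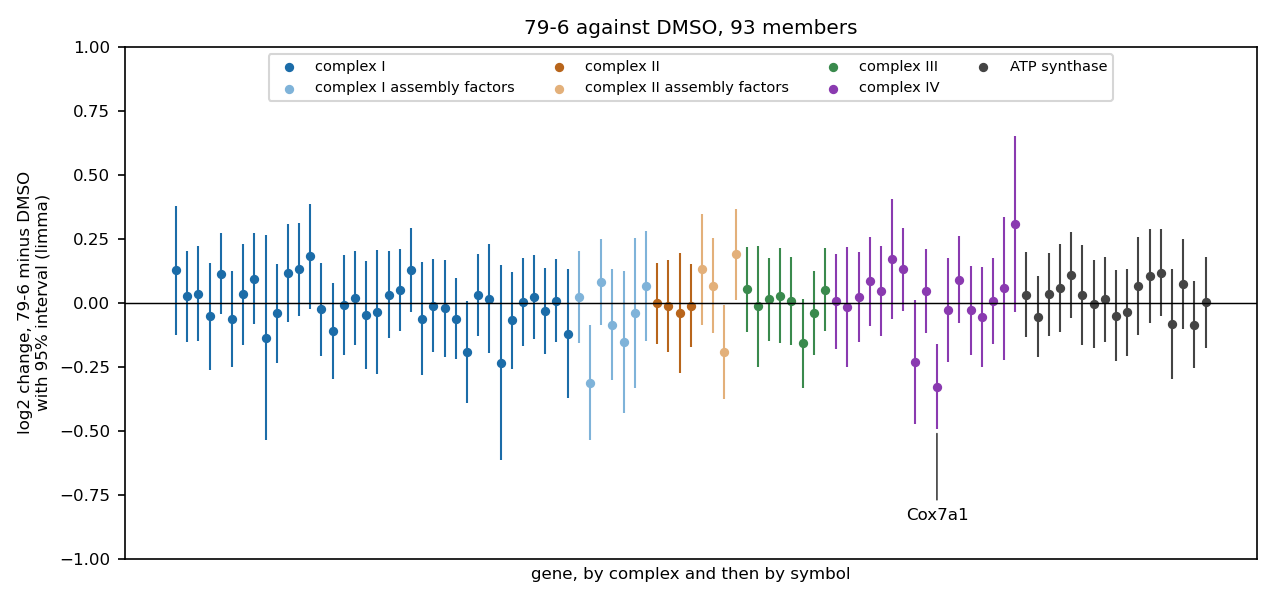
Log2 change from DMSO to 79-6 on the y axis for each of the 93 genes, ordered on the x axis by complex and then by symbol; points are limma estimates and bars 95% intervals. Every estimate lies between -0.33 and 0.31, and Cox7a1 has the lowest.

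Against fresh cells, 79-6 gave 22 calls among the 93 (23.7%, background 26.0%), with 17 higher (18.3%, background 12%) and 5 lower (5.38%, background 13.9%). With the filter on dim genes 23 members were called, against 36.6% of the genes kept. This comparison shares its fresh arrays with the DMSO one, so the values are set side by side and not counted as support. Sdhb had a log2 change of 0.53 here and 0.55 with DMSO, Cox6a1 0.42 and 0.37, Cox7a2l 0.41 and 0.32, Atp5e 0.41 and 0.30, and Ndufa13 0.36 and 0.25. Cox6b2 was -1.39 ± 0.10 (SE, 2.62-fold lower, adjusted p = 1.41e-04 by limma) here and -1.16 with DMSO. Cox7a1, called with DMSO, was not called here (0.13, adjusted p = 0.238 by limma). Genes called here and not with DMSO included Cox6b1 (0.34), Ndufa1 (0.40), Ndufa6 (0.34) and Ndufa4 (0.32) as rises. Ndufa11, Ndufb5 and Ndufb7 rose by 0.28, 0.24 and 0.27. Falls were Ndufaf2 (-0.49), Ndufaf6 (-0.42), Ndufaf4 (-0.32) and Cox4i2 (-0.35). Adjusted p of the called genes did not exceed 0.0494 by limma, and whether a gene's 2 changes differ is what 79-6 against DMSO tests.

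Of the 36 genes counted by symbol as complex I subunits, 10 rose with 79-6 against fresh cells (27.8%, background 12%) and 0 fell (background 13.9%). The 10 include Ndufa4, which is now known to sit in complex IV. Of the 7 complex I assembly factors 3 fell (42.9%) and 0 rose. Their median difference from the fresh mean was -0.16 on 79-6 replicate 1 and -0.39 on 79-6 replicate 2. The difference between subunits and assembly factors was not tested. Ndufaf2 read 8.08 and 8.18 on the fresh arrays, above all 4 cultured arrays. Calls that remained in each of 6 fits without 1 array were 5 of 22: Atp5e, Cox6a1, Cox6b2, Ndufa13 and Sdhb. The count was 7 without fresh replicate 1 and 8 without fresh replicate 2, and 16 without any 1 of the other 4 arrays.

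**Figure D4:**
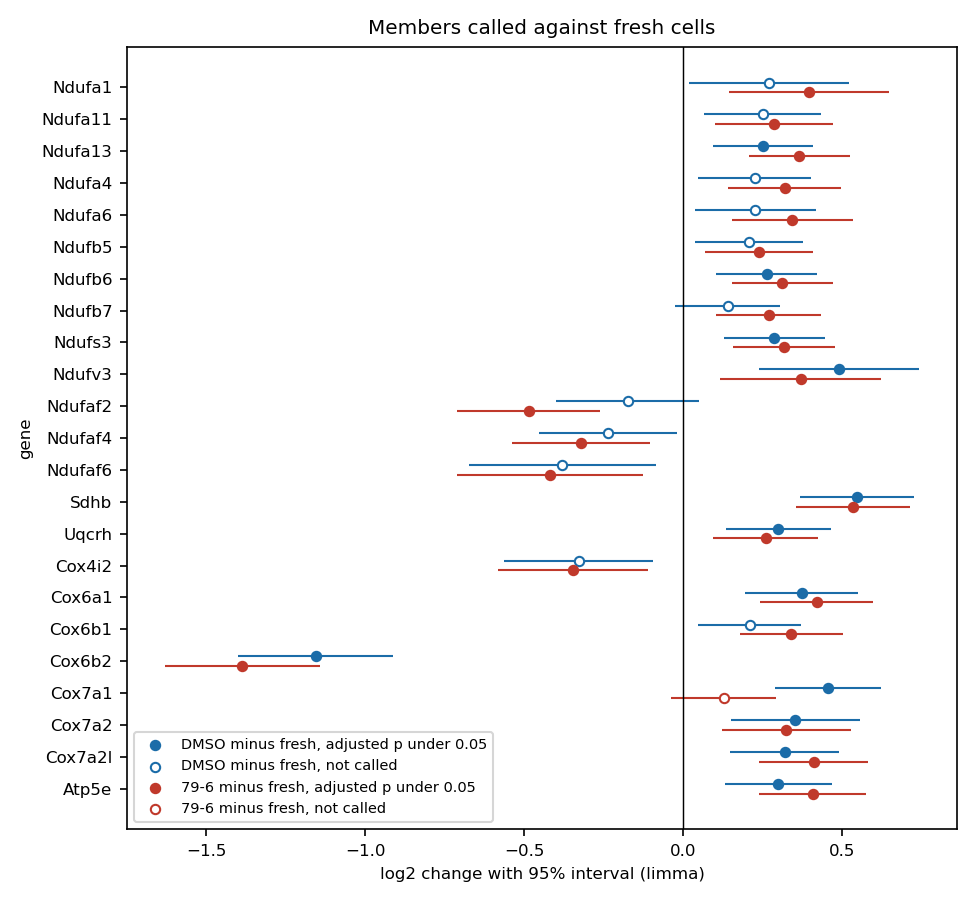
Log2 change against fresh cells with its 95% interval, on the x axis, for the genes on the y axis that were called in at least 1 of the 2 comparisons with fresh cells; blue is DMSO, red is 79-6, and filled points passed an adjusted p of 0.05. Most rises lie between 0.2 and 0.6, Cox6b2 stands apart at -1.16 and -1.39, and Cox7a1 is filled for DMSO only.

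Genes that serve the same machinery but fall outside the prefixes were read from lists chosen by function. Among 27 assembly factors from DMSO against fresh, 7 fell and 2 rose (33.3% called, background 19.6%) with a median of -0.15. The falls included Cox18 (-0.55), which helps insert a complex IV subunit into the membrane, Cox14 (-0.53) and Cox15 (-0.45), a heme A synthesis enzyme; Cox20 (0.45) and Tmem126b (0.36), an assembly factor of complex I, rose. Of 20 other electron transport and coupling genes 3 fell and 1 rose (20% called, near that background), with a median of -0.07. The 3 were enzymes of ubiquinone synthesis, Coq4 (-0.40), Coq5 (-0.37) and Coq2 (-0.30), and the rise was in Gpd2 (0.29), the mitochondrial glycerol phosphate dehydrogenase. In the citric acid cycle 2 of 17 fell (11.8%, background 10.7%), Suclg2 (-1.04), a succinyl-CoA ligase subunit, and Idh2 (-0.32), and 0 rose (background 8.89%).

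Regulators and genes that maintain mitochondrial DNA split. Of 22 measured, 2 rose (9.09%, background 8.89%) and 5 fell (22.7%, background 10.7%) from fresh to DMSO. Polg, the mitochondrial DNA polymerase, rose by 1.13 ± 0.07 (SE, adjusted p = 9.23e-05 by limma) and Nrf1 itself by 0.50 (adjusted p = 0.00229 by limma). Tefm, a mitochondrial transcription elongation factor, fell by 0.88, Pprc1, a coactivator, by 0.66 and Myc by 0.63. From DMSO to 79-6 Myc was the only gene called in these lists, with a log2 change of -0.51 ± 0.08 (SE, adjusted p = 0.0215 by limma). Of the regulators 6 of 22 were lower (27.3%, against 9.78% of all genes) and 0 higher (against 10.7%) at an unadjusted p of 0.05. Of their changes 19 of 22 were negative, against 8933 of 19937 over all genes. The mean log2 value of these 22 was 8.88 and 8.89 with DMSO and 8.81 and 8.72 with 79-6, lowest on 79-6 replicate 2. In the other 4 lists limma called 0 genes, and the counts at an unadjusted p of 0.05, which 20.5% of all genes passed, were 4 of 27 assembly factors, 2 of 20 electron transport genes, 0 of 17 citric acid cycle genes and 6 of 77 mitochondrial ribosome genes. No gene tested had a symbol starting with mt-Nd, mt-Co, mt-Cy or mt-At, so subunits encoded in mitochondrial DNA were not analysed here.

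**Figure D5:**
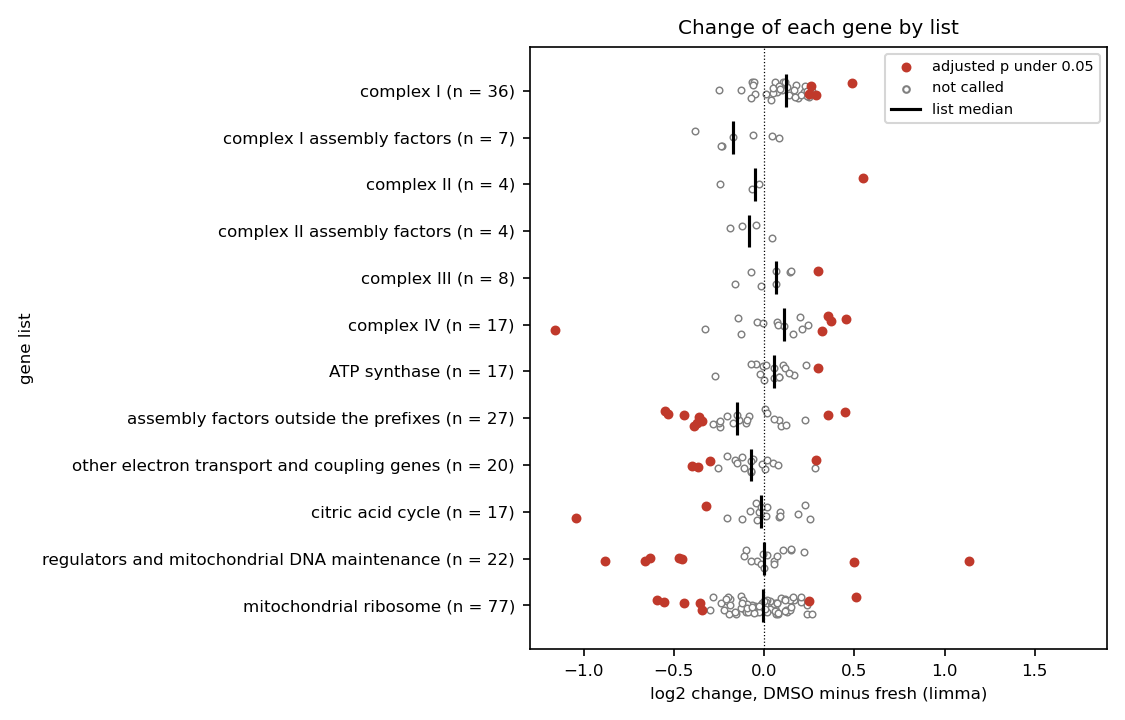
Log2 change from fresh to DMSO on the x axis for every gene of the 7 groups of members and of 5 further mitochondrial lists on the y axis, with filled red points for an adjusted p under 0.05 and a black bar at each list's median. Calls among complex I, III and ATP synthase genes lie to the right of 0, and those among assembly factors outside the prefixes lie mostly to the left.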

How the data were processed

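Per the labels' protocols, PicoPure-extracted RNA of Thy1.2+ cells was biotin-labelled for Affymetrix whole-transcript arrays. RMA and oligo (an R package) appear in the submitters' processing notes, without a version in what was read here. The authors deposited RMA intensity values on a linear scale (8.75 to 25316), of which log2 was taken. Of 34760 probe sets 21640 had 1 symbol in the platform annotation, 1321 several and 11799 none; all 93 members matched a RefSeq gene by Entrez identifier. Genes were tested by their brightest probe set (19937 genes; 954 had several).

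All 6 arrays were fitted with 1 mean per group in limma 3.58.1 (R 4.3.3), with 3 residual df plus 4.24 from the prior; two-sided p-values were adjusted by Benjamini and Hochberg's method across every gene, and 0.05 was the threshold. The code was tested on simulated arrays. Errors are limma standard errors (SE); intervals are 95%. Same-numbered arrays deviated from group means with correlations of 0.0036 (fresh and DMSO), -0.0740 (DMSO and 79-6) and 0.0948 (fresh and 79-6) over all genes, so the numbers were not taken as pairs; over the members alone these were -0.117, 0.334 (DMSO and 79-6) and -0.240. Named were called members, fixed isoforms and core subunits, and from other lists up to 3 called genes in each direction. Ndufaf1, Ndufs5, Ndufab1, the single cell type markers named and the printed promoters were chosen after values were seen. The members and lists were chosen with earlier results of these data known. Alternatives were a replicate block, arrays set to 1 median, a pseudocount of 16, a filter at the lower 25% of genes, trend and robust settings, the mean of all probe sets, only the 2 groups compared, and leaving out each array.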

Additional observations from a re-analysis of the deposited data

How the results depend on the processing

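Members called from fresh to DMSO (12) numbered 20 with the pseudocount and 23 with trend and robust settings, where 21.6% and 22.8% of all genes were called. The 11 higher became 17 with arrays set to 1 median and 21 with trend and robust settings. The 1 lower became 4 with the pseudocount, 3 with the filter, and 2 with trend and robust settings or with the mean of probe sets. Leaving out 1 array gave 3 to 13 in either direction, 2 to 12 higher and 1 lower. From DMSO to 79-6 the 1 call, lower, became 0 with the replicate block, with trend and robust settings and with only the 2 groups compared. Without 1 array it gave 0 to 1 in either direction, 0 to 1 higher (Cox8c without 79-6 replicate 1) and 0 lower. For 79-6 against fresh, fits without 1 array gave 7 to 16, 5 to 12 higher and 2 to 6 lower. The replicate block left 10 of 12, 0 of 1 and 16 of 22 calls; numbers do not pair the arrays. Setting arrays to 1 median moved medians from fresh to DMSO to 0.012 (complex II), 0.13 (complex III), 0.17 (complex IV) and 0.12 (ATP synthase), and from DMSO to 79-6 to -0.063 (complex II), -0.041 (complex III) and -0.021 (ATP synthase). This scaling moves all genes alike: their medians went from 0.02 to 0.08 and from 0.02 to -0.03, and the sign of 11 and 25 members' changes turned with it. The mean of probe sets put complex II assembly factors at -0.0069 from fresh to DMSO. Without 1 array, medians ranged from 0.0047 to 0.11 (complex III) and 0.079 to 0.18 (complex IV) from fresh to DMSO, from -0.17 to 0.075 (complex I assembly factors) from DMSO to 79-6, and from -0.39 to -0.16 (complex I assembly factors) and -0.039 to 0.080 (complex III) for 79-6 against fresh. No called change reversed. The cause of these shifts was not tested, and 2 arrays a group limit all calls.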

Other observations

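The mitochondrial ribosome makes the subunits encoded in mitochondrial DNA, and 77 of its genes were measured, 48 of the large (Mrpl) and 29 of the small subunit (Mrps) by symbol. From fresh to DMSO 2 rose (2.60%, against 8.89% of all genes) and 5 fell (6.49%, against 10.7%) by limma, with a median of -0.01. Mrpl52 rose by 0.51 and Mrpl58 by 0.25, and Mrps18b fell by 0.59, Mrps6 by 0.56 and Mrps34 by 0.45. With 79-6 against fresh cells 2 rose (2.60%, against 12%) and 12 fell (15.6%, against 13.9%), with Mrps18b (-0.71), Mrps6 (-0.68) and Mrps28 (-0.55) lowest and a median of -0.06. The mean log2 value of the 77 genes was 9.54 and 9.51 on the fresh arrays and 9.49 and 9.50 with DMSO. It was 9.49 on 79-6 replicate 1 and 9.395 on 79-6 replicate 2, so replicate 2 alone stood low.

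For 18 members the annotation gave more than 1 probe set, and these did not always move together: their changes from fresh to DMSO differed in sign for 7 genes, with a median range of 0.12. Ndufab1, the mitochondrial acyl carrier protein that is also a complex I subunit, differed most. Its brighter probe set, used above, had a log2 change of 0.01 and the dimmer one a change of -0.63. Which transcripts each probe set reads was not analysed here.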
